A study of Mus musculus with 18 samples.

Results

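The synaptic vesicle and release machinery was followed as 39 mouse genes, chosen by symbol from the 27179 genes in the read count tables. Each of the 39 was found in the tables and entered the test across 20944 genes. They comprise 4 SNAREs, 4 genes for SNARE clamping and disassembly, 7 synaptotagmins, 3 synapsins, 8 vesicle membrane proteins, 8 active zone genes, 4 genes of the Rab3 system and the endocytic gene Amph. RNA came from 18 libraries of mouse embryonic stem cell (ESC) cultures differentiating into spinal cord neurons, with 3 independent differentiations in each of 6 groups. The paper describes the day 4 cultures as mainly postmitotic motor neurons and interneurons. All cultures received 1 µM retinoic acid (RA) and 0.5 µM of the Hedgehog agonist SAG. Day 2 progenitors came from the iCre line and were collected before any induction. Control neurons were the iHoxc6 line on day 4 without doxycycline (Dox). The iHoxc6, iHoxc8, iHoxc9 and iHoxc10 neurons were collected on the same day after 48 h in 3 µg/ml Dox, which switches on a Flag-tagged Hox gene inserted at the Hprt locus of each line. These are overexpression lines, and control neurons exist for the iHoxc6 line alone.

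At a nerve terminal, vesicles filled with transmitter are docked at the active zone by Rab3 and its effectors and by scaffolds such as RIM, Bassoon and Piccolo. Munc13 proteins prime them, and the vesicle SNARE synaptobrevin zippers with syntaxin and SNAP25 on the plasma membrane. Complexin clamps this complex until calcium binds a synaptotagmin, after which NSF and SNAP proteins take the SNAREs apart and endocytosis recovers the membrane. Motor neurons begin to make this machinery when they leave the cell cycle, before their axons have reached a muscle.

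Total counts per library ran from 24498630 to 33168533, so that 3 counts corresponded to 0.0883 to 0.122 CPM (counts per 1000000 counts). Levels below are CPM after trimmed mean of M-values (TMM) scaling. Each induced Hox gene was high in its own line. Hoxc9 lay between 213 and 236 CPM in iHoxc9 neurons and at most at 0.133 CPM in any other group, and Hoxc10 lay between 425 and 433 CPM in iHoxc10 neurons and at most at 0.353 CPM elsewhere. Hoxc6 lay between 500 and 532 CPM in iHoxc6 neurons and between 1.80 and 5.17 CPM in control, but reached 49.4 CPM in iHoxc10 neurons. Hoxc8 lay between 361 and 410 CPM in iHoxc8 neurons and at most at 0.399 CPM elsewhere. All 12 pan-neuronal markers (Tubb3, Map2, Rbfox3 and others) were above 1 CPM in each group, and their summed level was 449 to 949 CPM on day 2 and 10442 to 11197 CPM in control neurons. The 7 motor neuron markers summed to 19.1 to 45 CPM on day 2 and to 544 to 571 CPM in control neurons. Of 17 markers of other lineages, 8 in control and 8 to 11 across all day 4 groups had 3 counts or fewer in every library, among them Pou5f1, Nanog, Gfap and Csf1r. The summed level of these 17 was 30.5 to 49.6 CPM on day 2 and 80.1 to 102 CPM in control. Mbp (2.07) and Sox10 (4.15), listed as glial markers, were the 2 that rose against day 2, while 7 fell. Mbp was at 76.8, 98.2 and 81.7 CPM in control and Sox10 at most at 0.996 CPM. Whether the Mbp counts came from glia was not tested. In day 2 replicate 2, 1 gene took 5.76% of the counts. The libraries were sequenced in 4 runs. Control and iHoxc6 shared a run, iHoxc9 and iHoxc10 shared another, and day 2 and iHoxc8 each had their own, so for the other comparisons run, cell line and condition cannot be told apart.

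Most of the machinery rose between day 2 and day 4. Summed over the 39 genes, the level was 360 to 388 CPM in day 2 progenitors and 1821 to 2070 CPM in control neurons. In the edgeR quasi-likelihood test, 35 members rose and 1 fell at an adjusted p under 0.01 (called below), against 21.2% of all genes tested that rose and 21.2% that fell. The median log2 fold change was 2.75 over the members and 0 over all genes tested, and 24 members rose with a log2 fold change above 2, against 6.74% of all genes. Over the 12 pan-neuronal markers the median was larger, at 3.79. The members amounted to 40.9% to 83.5% of the summed pan-neuronal markers on day 2 and to 17.2% to 19.0% in control. All 3 control libraries were above all 3 day 2 libraries for 35 members. In these bulk samples a larger share of neurons and more RNA per neuron cannot be told apart.

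**Figure D1:**
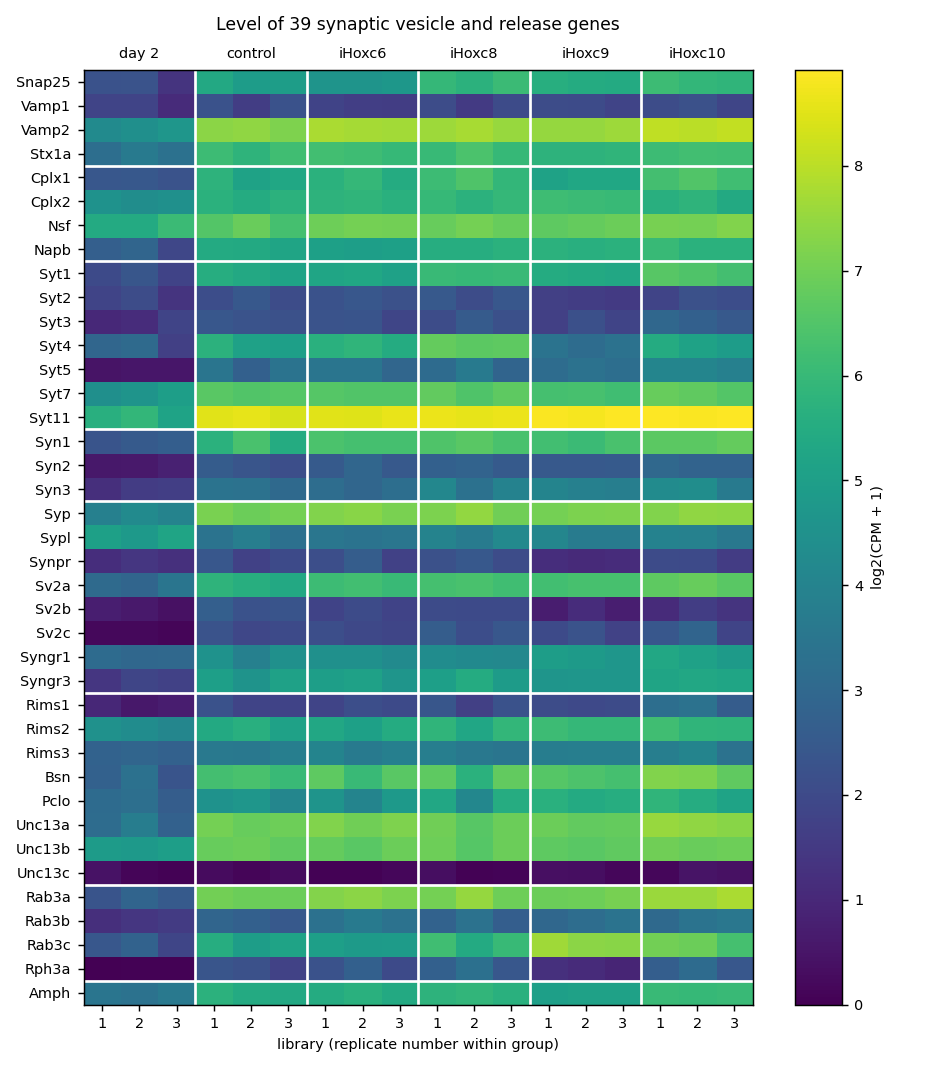
Level of each of the 39 genes (rows, grouped by role) in each of the 18 libraries (columns, replicates 1 to 3 of each group), as log2(CPM + 1). The day 2 columns are darker than the control columns in 35 rows, Sypl is the row that is brighter on day 2, and Syt11 is the brightest row on day 4.

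The SNAREs themselves rose from a low level. Snap25, a plasma membrane SNARE, was at 3.71, 3.83 and 1.53 CPM in the day 2 libraries and at 40.3, 29.5 and 30.6 CPM in control (log2 fold change 3.47, SE 0.227, adjusted p = 1.48e-11 by edgeR). Vamp2, the synaptobrevin of most vesicles, went from 18.3, 20.5 and 24.6 CPM to 164, 173 and 145 CPM (2.93, SE 0.134). Stx1a, the syntaxin of the plasma membrane, went from 8.32, 11.4 and 9.15 CPM to 68.0, 54.8 and 70.9 CPM (2.75, SE 0.155). For each of these the groups did not overlap. Vamp1, a synaptobrevin prominent at adult motor terminals, was the exception, with 2.56, 2.53 and 1.16 CPM on day 2 and 3.79, 2.04 and 3.71 CPM in control, so that the groups overlapped (0.62, SE 0.287, adjusted p = 0.0772). Per kilobase of exon, control neurons held 42.2 CPM of Vamp2 and 0.313 CPM of Vamp1.

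All 4 genes that clamp or recycle SNAREs rose. The complexin gene Cplx1 changed more than Cplx2 (log2 fold changes 3.32 and 1.20), and Napb, which encodes the SNAP form enriched in brain, changed more than the ATPase gene Nsf (3.05 and 0.90). Nsf was already at 42.4, 42.7 and 66.1 CPM on day 2.

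Of the 7 synaptotagmins, 6 rose. Syt1, the calcium sensor for fast release in forebrain neurons, went from 2.96, 4.19 and 2.44 CPM to 45.9, 41.2 and 34.7 CPM (3.67, SE 0.175, adjusted p = 8.59e-14 by edgeR). Its close relative Syt2, the fast sensor of the mature neuromuscular junction, had 2.56, 3.23 and 1.56 CPM on day 2 and 3.31, 4.43 and 3.18 CPM in control, and was not called (0.57, SE 0.239, adjusted p = 0.0496). The slow sensor gene Syt7 (1.91), Syt3 (1.29), Syt5 (4.29), Syt4 (2.87) and Syt11 (2.93) rose. Syt4 and Syt11 encode synaptotagmins that do not trigger fast release. Per kilobase of exon Syt11 was the most abundant of all 39 members in control neurons, at 69.6 CPM, against 4.87 CPM for Syt1 and 0.476 CPM for Syt2.

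All 3 synapsins and 7 of 8 vesicle membrane proteins rose. The synapsins, which tether vesicles in reserve, changed by 3.65 (Syn1), 2.77 (Syn2) and 2.22 (Syn3) on the log2 scale. Sv2c, one of 3 genes for the SV2 glycoproteins, was at 0.135, 0.133 and 0.0937 CPM on day 2 and at 3.89, 2.77 and 2.99 CPM in control (4.70, SE 0.406). Sv2a (2.57), Sv2b (3.12), the tetraspan genes Syp (3.07), Synpr (1.20), Syngr1 (1.41) and Syngr3 (3.72) also rose. Sypl encodes a synaptophysin relative of many non-neuronal cells, and it fell from 32.5, 26.4 and 36.0 CPM to 9.64, 13.1 and 8.83 CPM (-1.59, SE 0.183, adjusted p = 1.38e-07 by edgeR), with no overlap between the groups.

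Rab3a, the GTPase of docked vesicles, was among the largest rises, from 4.01, 6.36 and 4.78 CPM to 130, 121 and 120 CPM (4.61, SE 0.184, adjusted p = 1.03e-14 by edgeR). Rph3a, which encodes the Rab3 effector rabphilin, had 2 counts in the 3 day 2 libraries together. It reached 4.05, 3.58 and 2.40 CPM in control, which is 155 times the day 2 level with a 95% exact interval of 42.5 to 1285 that covers counting error only. Rab3b (1.79) and Rab3c (3.09) rose as well. At the active zone Unc13a (3.80), Bsn (3.54), Rims1 (2.04), Unc13b (1.97), Pclo (1.56), Rims2 (1.11) and Rims3 (0.93) rose. Unc13c had at most 0.337 CPM in any day 2 library and at most 0.193 CPM in any control library, near the level of 3 counts, and showed no detectable change at this depth. Amph, for the endocytic protein amphiphysin, rose by 2.16.

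**Figure D2:**
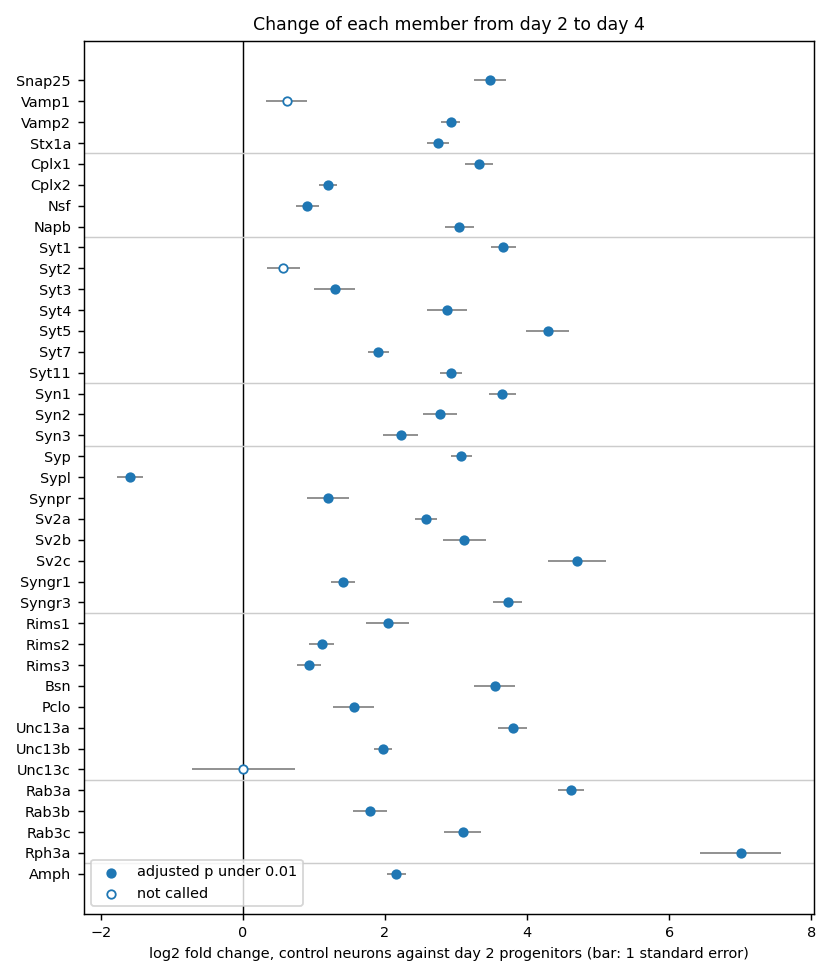
Log2 fold change of each member in control neurons against day 2 progenitors, with a bar of 1 standard error; filled points passed an adjusted p of 0.01 in edgeR. Points lie right of 0 apart from Sypl at -1.59, and the 3 open points are Vamp1, Syt2 and Unc13c.

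Levels differed widely within families in control neurons. Per kilobase of exon, Rab3a was at 55.5 CPM against 3.07 for Rab3c and 1.59 for Rab3b, Sv2a at 10.3 CPM against 0.524 for Sv2b and 0.332 for Sv2c, and Syn1 at 17.7 CPM against 0.703 for Syn3 and 0.594 for Syn2. For the Munc13 genes the levels were 9.69 CPM (Unc13a), 4.97 CPM (Unc13b) and 0.0173 CPM (Unc13c). Among RIM genes Rims2 led, at 3.95 CPM per kilobase against 1.47 for Rims3 and 0.395 for Rims1.

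In 31 members an entry of the RefSeq promoter table (GRCm38) gives the 250 bases upstream of the start. Snap25, Vamp2, Syt4, Syt5, Syt7, Syn3, Syngr3 and Rims2 were not matched. TTCAGCACC, searched on both strands, is the left part of RE1, the element that the neuronal gene repressor REST binds. It is in 0.301% of the 32851 promoters in the table and in that of 1 member, Syn1. The share is per promoter, while a member counts if any of its promoters carries the motif, so that the units differ. The window below is shown because Syn1 carries the motif, and the capitals mark that motif, which begins 232 bases before the start. It covers chrX:20920919-20921168, minus strand, and reads 5′ to 3′ along the gene.
Syn1: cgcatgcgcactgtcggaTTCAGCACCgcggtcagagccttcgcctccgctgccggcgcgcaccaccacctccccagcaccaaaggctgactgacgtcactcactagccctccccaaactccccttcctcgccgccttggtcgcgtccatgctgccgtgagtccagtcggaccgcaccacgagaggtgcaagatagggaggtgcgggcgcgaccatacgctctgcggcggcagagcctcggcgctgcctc

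In the induced lines most members rose as well. Against day 2, 35 members rose and 1 fell in iHoxc6 neurons (22.7% and 23.9% of all genes rose and fell), with 25 above a log2 fold change of 2 (7.08% of all genes). In iHoxc8 neurons 35 rose and 1 fell (22.3% and 22.3% of all genes), 26 of them above 2 (7.64%). In iHoxc10 neurons 35 rose and 1 fell (24.1% and 26.1%), with 28 above 2 (9.13%). In iHoxc9 neurons 31 rose and 1 fell (23.4% and 23.3%), with 23 above 2 (8%). The 5 comparisons share the day 2 libraries. In all of them Sypl was the member that fell, with log2 fold changes between -1.66 and -1.11, and Vamp1, Syt2 and Unc13c were not called. Members not called in iHoxc9 neurons but called in the other day 4 groups were Syt3 (0.78, adjusted p = 0.0278), Syt4 (0.72, adjusted p = 0.0306), Sv2b (0.74, adjusted p = 0.0657) and Synpr (-0.26, adjusted p = 0.504), from edgeR. The differences between the lines are tested next.

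With Hoxc6 induced, no member passed the test against control in edgeR, while 0.587% of all genes did so in either direction. At an unadjusted p under 0.05 there were 7 members, and DESeq2 called 0. The median log2 fold change was 0.08. The smallest adjusted p in edgeR belonged to Rab3b (0.83, adjusted p = 0.0418), at 9.13, 11.5 and 9.31 CPM in iHoxc6 neurons and 6.55, 5.66 and 4.57 CPM in control. Syn1 was called when control replicate 2 was left out, with an adjusted p of 0.00241 in edgeR. That library had 80.4 CPM of Syn1 and the other 2 had 50.7 and 44.3 CPM. It also held the most progenitor and dividing cell marker RNA of the control libraries, at 1407 CPM against 657 and 825 CPM, and the part of this in the result was not tested.

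With Hoxc8 induced, 2 members rose and 0 fell, against 1.03% and 1.09% of all genes, and none passed a log2 fold change of 2 (0.22% of all genes). Syt4 was at 110, 101 and 103 CPM in iHoxc8 neurons and at 52.2, 33.5 and 32.2 CPM in control (1.41, SE 0.258, adjusted p = 0.00248 by edgeR), with every iHoxc8 library above the highest control. The call was lost without control replicate 3 (1.28, adjusted p = 0.0282) or without iHoxc8 replicate 1 (1.38, adjusted p = 0.0136). Sv2a was at 76.7, 80.1 and 71.0 CPM against 54.7, 47.2 and 41.1 CPM in control (0.67, SE 0.141, adjusted p = 0.00658 by edgeR). It lost its call in 7 of 12 alternatives, with adjusted p up to 0.0745. The count was 0 without control replicate 3 or iHoxc8 replicate 1, 1 without iHoxc8 replicate 3 and 4 without control replicate 2. Over all genes, iHoxc8 replicate 2 departed from replicates 1 and 3 by a chi-square per degree of freedom of 49.1 and 62.0. Replicates 1 and 3 departed from each other by 6.23, and control pairs by 38.6 to 127. In iHoxc8 replicate 2 Bsn was at 50.2 CPM, against 104 and 107, and Rab3a at 181 CPM, against 131 and 122. The part of this in the calls was not tested. The 31 members with a positive value and the 8 with a negative one had a median of 0.25, against 0.02 over all genes tested. The pan-neuronal markers were also higher in this line, at 11894 to 12784 CPM against 10442 to 11197 CPM in control, with 11 of 12 positive and 1 called, and 2 of 7 motor neuron markers were lower. Scaled to the pan-neuronal markers, the members had a median of 0.07 with 25 positive and 14 negative values. Sv2a was then not called (0.49, SE 0.257, adjusted p = 0.346 in edgeR), with a larger SE than the 0.141 under TMM. Syt4 was called (1.24). The part of these markers in the members' values was not tested.

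With Hoxc9 induced, 3 members rose and 5 fell, against 6.95% and 7.13% of all genes, and 3 passed a log2 fold change of 2 in either direction (2.7% of all genes). Of the 13192 genes with a mean of at least 1 CPM, a level that 38 of the members reach, 9.60% rose and 10.4% fell, so that the share of members called (20.5%) was close to that of genes at such levels (19.97%). The median over the 39 was 0.09. Without control replicate 1 or iHoxc9 replicate 3 there were 5 calls in place of 8. Rab3c (chr13:110054187-110280996 in GRCm38), for a Rab3 GTPase, was at 200, 166 and 159 CPM in iHoxc9 neurons against 46.0, 30.1 and 34.7 CPM in control (2.24, SE 0.239, adjusted p = 3.77e-07 by edgeR). Sv2b (chr7:75114894-75309262) was at 0.626, 1.18 and 0.677 CPM against 5.43, 3.74 and 4.00 CPM (-2.38, SE 0.285, adjusted p = 2.02e-06 by edgeR). Syt4 was at 9.54, 7.95 and 9.23 CPM against 52.2, 33.5 and 32.2 CPM (-2.14, SE 0.272, adjusted p = 4.39e-06 by edgeR). The iHoxc9 and control libraries did not overlap for any of these genes.

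Rph3a (chr5:120940499-121010116) was at 1.37, 1.15 and 0.876 CPM against 4.05, 3.58 and 2.40 CPM in control (-1.56, SE 0.319, adjusted p = 0.00105 by edgeR). These 4 calls were kept in 12 of 12 alternatives. Synpr, for the vesicle protein synaptoporin, fell (-1.46), but was not called without control replicate 1 (adjusted p = 0.0115). Pclo (1.13) and Sv2a (0.68) rose and Amph fell (-0.47), and their calls were lost in 5, 2 and 6 of the 12 alternatives. Snap25 (0.42), Vamp2 (0.20), Stx1a (-0.26) and Syt1 (0.04), the core of fusion, were not called. The motor neuron markers summed to 298 to 324 CPM in iHoxc9 neurons and to 544 to 571 CPM in control, with 4 of 7 lower and 0 higher. The part of this in the members' changes was not tested.

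With Hoxc10 induced, the shift was broad and mostly upward. 14 members rose and 1 fell, against 6.67% and 7.75% of all genes, and none passed a log2 fold change of 2 (1.48% of all genes). The median was 0.56, with 33 positive and 6 negative values. Rab3c was at 129, 119 and 77.7 CPM against 46.0, 30.1 and 34.7 CPM in control (1.56, SE 0.234, adjusted p = 5.45e-05 by edgeR). Sv2b, the member that fell, was at 1.16, 2.08 and 1.54 CPM against 5.43, 3.74 and 4.00 CPM (-1.46, SE 0.267, adjusted p = 0.000377 by edgeR). Rims1 (chr1:22285972-22806158), which encodes an active zone scaffold, was at 8.26, 9.17 and 5.10 CPM against 3.76, 2.54 and 2.43 CPM (1.36, SE 0.26, adjusted p = 0.000566 by edgeR). None of the 3 overlapped between the groups. Per kilobase of exon, Rims1 remained below the other RIM genes in iHoxc10 neurons, at 1.02 CPM against 1.58 for Rims3 and 5.88 for Rims2.

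Sv2a was at 103, 114 and 99.5 CPM against 54.7, 47.2 and 41.1 CPM (1.15, SE 0.142, adjusted p = 5.93e-06 by edgeR). The fusion genes Syt1 (1.08), Cplx1 (0.90), Snap25 (0.87) and Vamp2 (0.71) rose, and Stx1a (0.14, adjusted p = 0.537 in edgeR) was not called. Syt1 was at 95.0, 87.2 and 76.0 CPM in iHoxc10 neurons and Vamp2 at 266, 254 and 271 CPM, all above the highest control library. Pclo (1.11), Syn3 (0.95), Syt5 (0.85), Syn1 (0.84), Syngr1 (0.83), Rab3a (0.70) and Amph (0.51) made up the rest. Of the 15 calls, Snap25, Syn3, Pclo, Syt5 and Amph were lost in some alternatives, in 2, 3, 4, 7 and 6 of 12.

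The pan-neuronal markers moved with this line. They summed to 14468 to 15815 CPM in iHoxc10 neurons and 10442 to 11197 CPM in control, with 5 of 12 higher and 0 lower. Progenitor and dividing cell markers had 5 of 12 lower and 0 higher, with sums of 713 to 811 CPM against 657 to 1407 CPM. Of the 7 motor neuron markers 2 were lower. The markers of other lineages summed to 127 to 158 CPM against 80.1 to 102 CPM in control, of which Mbp, the 1 called higher (0.75), made up 122 to 154 CPM. The part of these markers in the members' changes was not tested. The members amounted to 17.5% to 19.99% of the summed neuronal markers in iHoxc10 neurons, to 18.7% to 20.6% in iHoxc8 and to 17.2% to 19.0% in control. In iHoxc6 (20.3% to 21.1%) and iHoxc9 neurons (19.6% to 21.4%) every library was above the highest control. With libraries scaled to these 12 markers in place of TMM, the log2 fold changes of all genes moved by a median of -0.49. 1 member then rose and 1 fell, Rab3c (1.08) and Sv2b (-1.94), and the median was 0.06, with 23 positive and 16 negative values. Sv2a was not called (0.66, SE 0.258, adjusted p = 0.0443 in edgeR), with a larger SE than under TMM. This fit kept the day 2 libraries, whose marker sums ran from 449 to 949 CPM. The scaling was chosen after seeing the data.

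**Figure D3:**
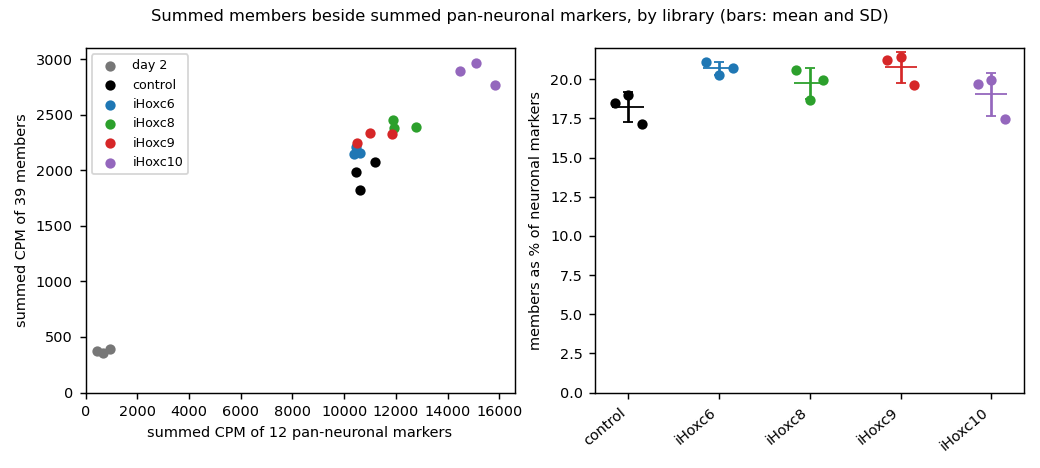
Left, summed CPM of the 39 members against summed CPM of the 12 pan-neuronal markers, a point for each library; right, the members as a percentage of those markers in the day 4 groups, with the mean and SD of 3 libraries. The iHoxc10 libraries lie furthest right, between 14468 and 15815 CPM of markers, while their percentages overlap with those of control; the iHoxc6 and iHoxc9 percentages lie above control.

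**Figure D4:**
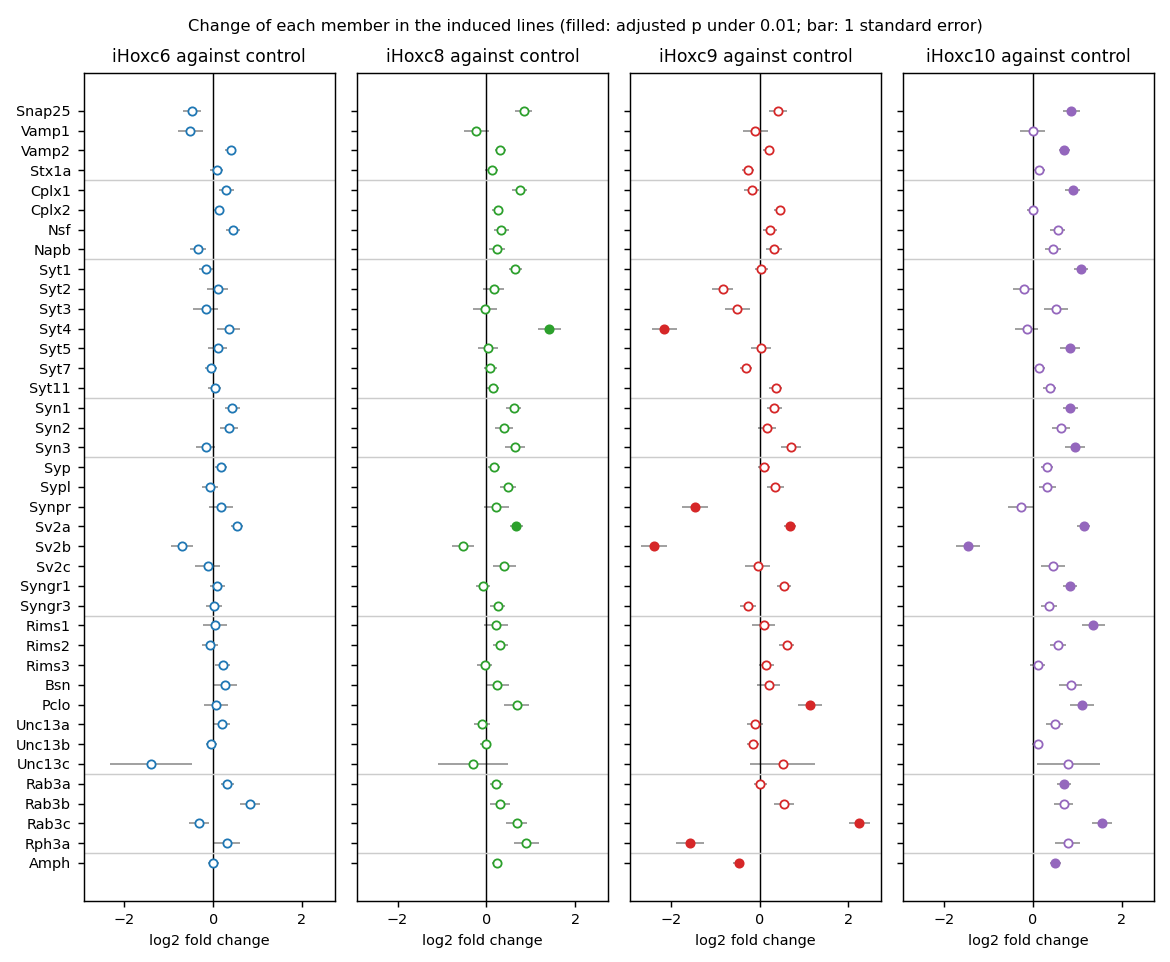
Log2 fold change of each member in the 4 induced lines against the same control neurons, with a bar of 1 standard error; filled points passed an adjusted p of 0.01 in edgeR. No point is filled for iHoxc6, 2 are for iHoxc8, 8 for iHoxc9 on both sides of 0, and 15 for iHoxc10, with Sv2b alone on the left.

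Rab3c rose and Sv2b fell in both iHoxc9 and iHoxc10 neurons, in comparisons that share the control libraries. Their promoter windows are shown for that reason. Sv2b was not called in iHoxc6 or iHoxc8, but its libraries there (2.44 to 3.14 and 2.97 to 3.14 CPM) also lay below the lowest control (3.74 CPM). Rab3c overlapped with control in both of those lines. Sv2a and Vamp2 lay above every control library in all libraries of each induced line. Posterior Hox proteins favor the core TTTAT, and with the cofactor PBX they bind TGATTTAT, which contains that core. On both strands the core is in 37.3% of all promoters in the table. Counted by gene, with any promoter sufficient, it is in 6 of the 31 members matched, Vamp1, Synpr, Sv2b, Rab3b, Rph3a and Amph. TGATTTAT is in 0.837% of all promoters and in that of 0 members. The paper reports that Hox sites lay mostly far from transcription starts. Hox binding at these genes was not examined here, and the windows do not speak to it. The windows of Sv2b (chr7:75309263-75309512) and Rab3c (chr13:110280207-110280456), both on the minus strand, read 5′ to 3′ along the gene, with TTTAT in capitals where it occurs. The window of Rab3c lies upstream of the start in the promoter table. The gene with the coordinates given above begins 790 bases upstream of that start, so that this window is inside it.
Sv2b: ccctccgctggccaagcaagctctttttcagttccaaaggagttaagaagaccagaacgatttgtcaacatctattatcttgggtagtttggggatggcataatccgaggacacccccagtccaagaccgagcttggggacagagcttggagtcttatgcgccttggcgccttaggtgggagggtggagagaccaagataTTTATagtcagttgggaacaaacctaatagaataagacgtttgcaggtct
Rab3c: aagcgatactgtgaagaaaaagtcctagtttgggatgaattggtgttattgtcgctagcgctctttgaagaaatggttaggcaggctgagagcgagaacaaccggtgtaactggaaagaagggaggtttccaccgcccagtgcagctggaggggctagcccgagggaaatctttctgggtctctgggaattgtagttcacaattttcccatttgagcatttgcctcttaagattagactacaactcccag

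iHoxc9 and iHoxc10 neurons were sequenced in the same run and come from separate lines. No member was higher in iHoxc9 and 8 were lower, against 2.6% and 2.4% of all genes, and 2 passed a log2 fold change of 2 (1.31% of all genes). Rph3a was at 1.37, 1.15 and 0.876 CPM in iHoxc9 and 5.36, 7.60 and 4.38 CPM in iHoxc10 neurons (-2.35, SE 0.316, adjusted p = 2.04e-05 by edgeR). Syt4 was at 9.54, 7.95 and 9.23 CPM against 43.3, 34.5 and 29.6 CPM (-2.01, SE 0.271, adjusted p = 2.1e-05 by edgeR). With the replicate block Syt4 was at -1.99, under a log2 fold change of 2, and Rph3a at -2.34. In both genes every iHoxc10 library lay above every iHoxc9 library. The count of calls was 5 without iHoxc9 replicate 2, iHoxc10 replicate 1 or iHoxc10 replicate 2.

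Cplx1 was at 34.2, 38.4 and 39.1 CPM in iHoxc9 and 74.6, 89.5 and 72.2 CPM in iHoxc10 neurons (-1.08, SE 0.173, adjusted p = 0.000164 by edgeR). Syt1 was at 43.8, 42.0 and 39.5 CPM against 95.0, 87.2 and 76.0 CPM (-1.04, SE 0.151, adjusted p = 5.08e-05 by edgeR). Amph was at 31.6, 33.2 and 33.0 CPM against 65.0, 62.6 and 65.4 CPM (-0.98, SE 0.124, adjusted p = 8.39e-06 by edgeR), with control between them at 51.5, 43.2 and 41.1 CPM. For these 3 genes the lines did not overlap. Rims1 was lower as well (-1.27, SE 0.26, adjusted p = 0.00209 by edgeR), but was not called without iHoxc9 replicate 2 or iHoxc10 replicate 1 or 2 (adjusted p up to 0.0166).

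Rab3a (-0.68) and Vamp2 (-0.51) were closer to the threshold. Rab3a lost its call when any of the 6 libraries was left out, and Vamp2 lost its call in 8 of 12 alternatives, including the fit with the replicate number as a block (adjusted p = 0.014 in edgeR). Rab3c differed by less than the test could call (0.69, adjusted p = 0.0671 in edgeR). Scaled to the pan-neuronal markers, 2 members were higher and 2 lower in iHoxc9 neurons, Rab3c (1.13) and Cplx2 (0.90) against Rph3a (-1.91) and Syt4 (-1.57). The summed markers were at 10476 to 11838 CPM in iHoxc9 and 14468 to 15815 CPM in iHoxc10 neurons, and all genes moved by a median of 0.45 with that scaling. Progenitor and dividing cell markers were at 1085 to 1168 CPM in iHoxc9 and 713 to 811 CPM in iHoxc10 neurons, with 4 of 12 higher and 0 lower in iHoxc9. Motor neuron markers were at 298 to 324 CPM and 486 to 547 CPM, with 4 of 7 lower and 1 higher. The part of these markers in the members' differences was not tested.

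**Figure D5:**
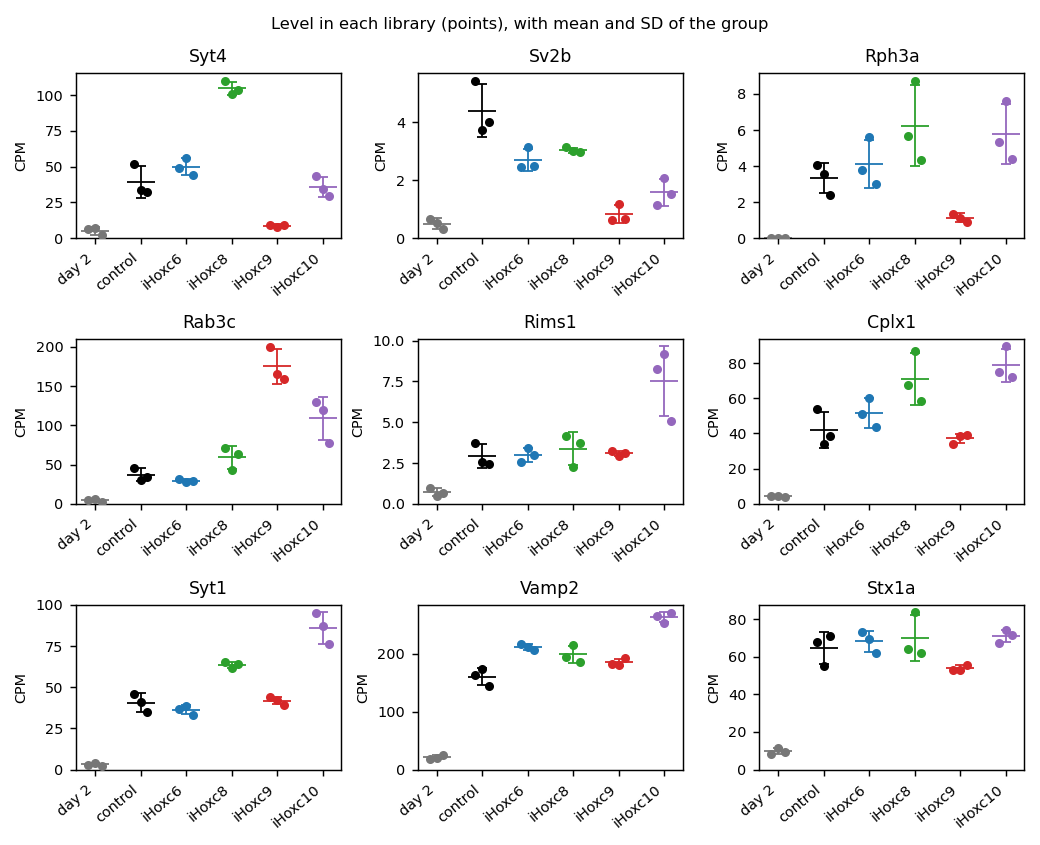
Level in CPM of 9 members in each library (points), with the mean and SD of each group of 3. Syt4 is highest in iHoxc8 and, of the day 4 groups, lowest in iHoxc9 neurons, Rab3c is highest in iHoxc9 neurons, and Rims1 and Syt1 are highest in iHoxc10 neurons.

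Across the 6 groups, the levels of Syt4 ran from 5.40 ± 2.79 CPM on day 2 (SD, n = 3) through 8.91 ± 0.848 in iHoxc9, 35.8 ± 6.95 in iHoxc10, 39.3 ± 11.2 in control and 49.9 ± 5.999 in iHoxc6 to 105 ± 4.66 in iHoxc8 neurons. Control overlapped with both iHoxc10 and iHoxc6, and no other neighbors in this order overlapped. Syt4 shares 14.5% of its exon length with Gm26658 on the other strand, and Syp, Syn3, Rab3b and Syt7 also share over 5% with another gene. How strand was treated in counting is not given in the sources used here, so part of their counts may belong to those genes.

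Of 81 other vesicle cycle genes, listed by role, 79 were tested. In control neurons against day 2, 42 rose (53.2%) and 15 fell (19.0%), where 21.2% and 21.2% of all genes did, and 31.1% and 26.5% of genes with a mean of at least 1 CPM. Among 25 genes for vesicle proteins and recycling 15 rose and 3 fell, among 21 active zone and Rab genes 14 rose and 2 fell, among 21 other SNAREs and their regulators 9 rose and 7 fell, and among 12 other synaptotagmins and calcium sensors 4 rose and 3 fell (33.3% and 25%). Against control, 1 rose and 0 fell in iHoxc6 neurons, 3 rose and 0 fell in iHoxc8, 8 rose and 6 fell in iHoxc9, and 18 rose and 7 fell in iHoxc10. In iHoxc6 and iHoxc8 the shares were 1.27% and 3.80%, where 0.587% and 2.12% of all genes were called. In iHoxc9 the shares that rose and fell, 10.1% and 7.59%, compare with 6.95% and 7.13% of all genes and with those of genes with a mean of at least 1 CPM (9.60% and 10.4%). In iHoxc10 22.8% rose and 8.86% fell, where 6.67% and 7.75% of all genes did, and 9.82% and 11.6% of genes with a mean of at least 1 CPM. The largest changes were in Syt10 (3.59), a synaptotagmin, and Lin7a (2.33), a scaffold gene, in iHoxc9 neurons. In iHoxc10 neurons they were in the dynamin gene Dnm3 (2.04), the priming factor gene Cadps2 (-2.04) and Vamp8 (-2.02), an endosomal SNARE. Between iHoxc9 and iHoxc10, 2 were higher (2.53%) and 8 lower (10.1%) in iHoxc9, where 2.6% and 2.4% of all genes were, and none passed a log2 fold change of 2.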

How the data were processed

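Per the labels and the methods of the study, poly(A) RNA was sequenced from 18 libraries, prepared from 500 ng of RNA. The authors aligned reads with STAR (2.7.0c), assigned them to RefSeq genes of mm10 with featureCounts, and deposited raw read counts per gene, with replicates kept apart and no normalization. The submitters' processing notes also name Picard (2.8.2) and DESeq2 (1.20.0). ERCC spike-ins were not used here. Genes were matched by Entrez identifier, and exon lengths and overlaps come from GENCODE vM21 (GRCm38).

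Counts were tested in R 4.3.3 with edgeR 4.0.16 (TMM factors, quasi-likelihood test, all 6 groups fitted together). A gene was kept when an iHox library held 1 count or more of it, which left 20944. Benjamini-Hochberg adjustment covered all 20944 genes, and standard errors came from the F statistic. There were 10 comparisons. With 3 libraries per group a two-sided exact permutation test cannot go below 0.1. On simulated data for iHoxc9 against control, 98.5% of 200 genes shifted by 2 on the log2 scale were recovered, with 5 other calls among 20944 genes. The 200 had a mean above 1 CPM, and no other gene differed between groups. Smaller shifts were not simulated, so this rate does not cover them.

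Alternatives were DESeq2 (1.42.0), its size factors, a filter of 10 counts in 3 libraries, no filter, the compared groups alone, a replicate block, each library left out, and scaling to 12 pan-neuronal markers. Where a call is followed over 12 alternatives, the marker scaling is not among them. Same-numbered iHoxc9 and iHoxc10 libraries deviated together over genes (r = 0.579, 0.474 and 0.651), so that their replicate numbers, from the labels, were taken to pair them.

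The members and lists were chosen with earlier results of these data known. Every library is given for Snap25, Vamp2, Stx1a, Syt1, the 3 largest called rises and falls from day 2 to control, and up to 4 called members per Hox comparison with a log2 fold change beyond 1. Of the other vesicle genes, those beyond 2 are named. Vamp1, Syt2, Nsf, Rab3b, Syn1 and Amph were added after their values were seen.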

Additional observations from a re-analysis of the deposited data

Results flagged for a closer look

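Of the 39 members, 2 differed between iHoxc9 and iHoxc10 neurons beyond a log2 fold change of 2 in the edgeR test. Syt4 was lower in iHoxc9 by a log2 fold change of -2.01 (adjusted p = 2.1e-05), and Rph3a by -2.35 (adjusted p = 2.04e-05), each in 3 of 3 libraries. In the fit with the replicate block the values were -1.99 and -2.34, so that Rph3a alone passed 2, and scaled to the pan-neuronal markers they were -1.57 and -1.91, with both still called. Against the same control neurons, Syt4 had -2.14 in iHoxc9 and -0.13 in iHoxc10, while Rph3a had -1.56 and 0.79. Groups of 3 libraries were not tested for outliers.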

How the results depend on the processing

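The number of members called against day 2 stayed within 1.5 times in every alternative. With marker scaling left out, no named value that was called changed direction. Values not called were not screened for this. With marker scaling, iHoxc10 against control had 23 positive and 16 negative members, in place of 33 and 6. Stx1a was among those that turned from positive to negative (-0.35). Against control and between lines the counts depended more on the processing, and the cause was not tested. Against control, DESeq2 called 6 members in iHoxc8 in place of 2, fitting the 2 groups alone or no filter gave 1, marker scaling 1, and leaving out a library 0 to 4. In iHoxc6 leaving out a library gave 0 to 1, in iHoxc9 5 to 10 in place of 8, and in iHoxc10 10 to 15 in place of 15. Marker scaling left 2 in iHoxc10. Standard errors under that scaling were larger for genes such as Sv2a, so a lost call there need not reflect a smaller change alone. Between iHoxc9 and iHoxc10, DESeq2 called 16 in place of 8, the 2 groups alone 20, marker scaling 4, and leaving out a library 5 to 7. Of the alternatives for named genes, with marker scaling left out, 725 kept their side of the threshold, 13 gained a call and 30 lost one.

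The main test leaves out the pairing of iHoxc9 and iHoxc10 libraries. The replicate block was fitted across all 18 libraries, so it is not a paired test of these lines alone, which was not run. It gave 7 calls in place of 8 between iHoxc9 and iHoxc10, where it ended the call of Vamp2 and no other. In the other comparisons the numbers were not taken to pair the libraries, with correlations of -0.51 to 0.40. iHoxc10 against day 2 came closest, with 0.398, 0.0657 and 0.232, and 5 of 6 libraries matched best to their own number. In these comparisons the block moved no count by more than 1, from 8 to 7 in iHoxc9 against control and from 36 to 37 in iHoxc8 against day 2. The members near 3 counts, Unc13c throughout and Rph3a on day 2, are limited by depth.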
